A study of Mus musculus with 5 samples.

Results

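The 10 genes described here encode a growth factor ligand, its receptors, their inhibitors and nuclear targets in mouse embryonic stem cells. They are Fgf4, Fgfr1, Fgfr2, Spry2, Spry4, Spred1, Dusp6, Etv4, Etv5 and Egr1. Each was found by its symbol as the only gene annotated to a probe set. Of the probe sets of a gene, the one with the highest mean over the 5 arrays was used. All 10 were found among 18193 measured genes, and all 10 had a mean above 5.52, the median of all probe sets. The rule used the level of a probe set and no difference between the groups.

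FGF4 is secreted by mouse embryonic stem cells and binds FGF receptors on the same or neighbouring cells. The receptors pass the signal through Ras, Raf and MEK kinases to ERK, which moves to the nucleus and switches on target genes. Several of those targets, among them the Sprouty and Spred proteins and the phosphatase DUSP6, damp the pathway that induced them, so that their transcripts are widely read as a gauge of ERK activity. In these cells the pathway is known for preparing the exit from naive pluripotency.

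The study compared 2 wild-type (WT) arrays with 3 arrays from cells carrying a mutation on both Trip12 alleles (Trip12 mut/mut). Trip12 is a HECT-type ubiquitin ligase gene. All 5 samples were E14 embryonic stem cells grown on a feeder layer of mouse embryo fibroblasts, in medium supplemented with KnockOut serum replacement at 14%, fetal bovine serum at 1% and leukaemia inhibitory factor, which holds stem cells undifferentiated, at 100 units/ml. The sources used here do not give the nature of the mutation, the number of clones or any removal of feeder cells before RNA extraction. The labels call the replicates biological without saying how they were made, so the p-values measure the spread between these samples, which may be technical. Values are log2 RMA values, on which a difference of 1 is a 2-fold change, and differences are Trip12 mut/mut minus WT.

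The array labelled Trip12 mut/mut replicate 1, called mutant replicate 1, did not stand apart from the WT arrays, whereas replicates 2 and 3 did. Over all probe sets it correlated with the WT arrays at r = 0.9989 and 0.9988, as these did with each other (0.9989), and in these pairs 0 probe sets were over 2-fold apart, against 293 to 545 between WT and replicates 2 or 3. Trip12 has 7 probe sets, and the 1 used, that with the highest mean, read 10.17 and 10.25 in WT. It read 10.18 on the array labelled mutant replicate 1, 12.09 on replicate 2 and 12.57 on replicate 3. The other Trip12 probe sets are not shown here. On the 1 used, the targeted gene went with that division and not with the labels. Results of the 10 genes are therefore given with and without the array labelled mutant replicate 1. Transcripts of both cell types of the culture were measured. All 15 stem cell markers had a mean above the probe set median, and their summed log2 level was 164.82 to 164.93 on the WT arrays and the array labelled mutant replicate 1, 162.32 on replicate 2 and 165.51 on replicate 3. Single markers differed in both directions, which a near-level sum hides. Pou5f1 read 12.25 to 12.48 on the 5 arrays. Lin28a read 9.38 to 9.51 on the first 3, 8.58 on replicate 2 and 8.37 on replicate 3. Esrrb read 8.681 to 8.775 on the first 3, then 9.26 and 9.39. Tbx3 read 9.01 to 9.06 on the first 3, then 9.50 and 9.94. Without the array labelled mutant replicate 1 and dim probe sets, 2 of the 15 fell and 0 rose. Of all genes tested there 1.34% fell and 3.29% rose. For fibroblasts, 21 of 22 listed markers were measured, all 21 with a mean above the probe set median. Their summed log2 level was 217.46 and 217.64 on the WT arrays, 217.01 on the array labelled mutant replicate 1, and 226.80 and 227.17 on replicates 2 and 3. In such bulk RNA, fewer cells of a type and less RNA per cell cannot be told apart.

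The 10 FGF and ERK genes differed little between the groups. Over all 5 arrays the differences lay between -0.13 for Egr1 and 0.14 for Fgfr1, and 0 of 10 genes passed the test (limma, adjusted p from 0.748 to 1.0). Over all 18193 genes 0% passed as well. At an unadjusted p below 0.05 there were 0 of 10, where 1.18% of all genes stood. The median difference of the 10 was -0.06, beside 0.02 over all genes. For 0 of 10 genes did the groups lie apart, where 12.0% of all genes had groups that do not overlap (5.73% higher and 6.29% lower in the mutant). The 95% interval of the difference lay within a 2-fold change in either direction for all 10 genes. The widest bounds were -0.41 for Spred1, a 1.33-fold decrease, and 0.58 for Fgfr1, a 1.5-fold increase.

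Leaving out the array labelled mutant replicate 1 gave no call among the 10 genes either. Here 0 of 10 genes passed (limma, adjusted p from 0.255 to 0.985), with 0% of all genes. Now 20.5% of all genes had an unadjusted p below 0.05, and 0 of the 10 did, the smallest being that of Fgf4 (limma, unadjusted p = 0.0546). The last of the 3 comparisons also removed dim probe sets. In it 4.64% of 11626 genes passed (3.29% higher and 1.34% lower) and 0 of 10 members did, the smallest limma adjusted p being 0.22, again that of Fgf4. At an unadjusted p below 0.05 stood 28.8% of the genes tested there and 0 of the 10 members. The median absolute difference was 0.12 for the 10 genes and 0.13 for all genes, or 0.18 for the 11560 genes with a mean above the probe set median. Of all genes 9.32% differed by at least 0.5 on the log2 scale and 0.907% by at least 1, and 0 of the 10 did either. The intervals were again within a 2-fold change for all 10 genes, the widest bounds being -0.53 for Spred1 and 0.76 for Fgfr1, or 1.45-fold lower and 1.69-fold higher.

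**Figure D1:**
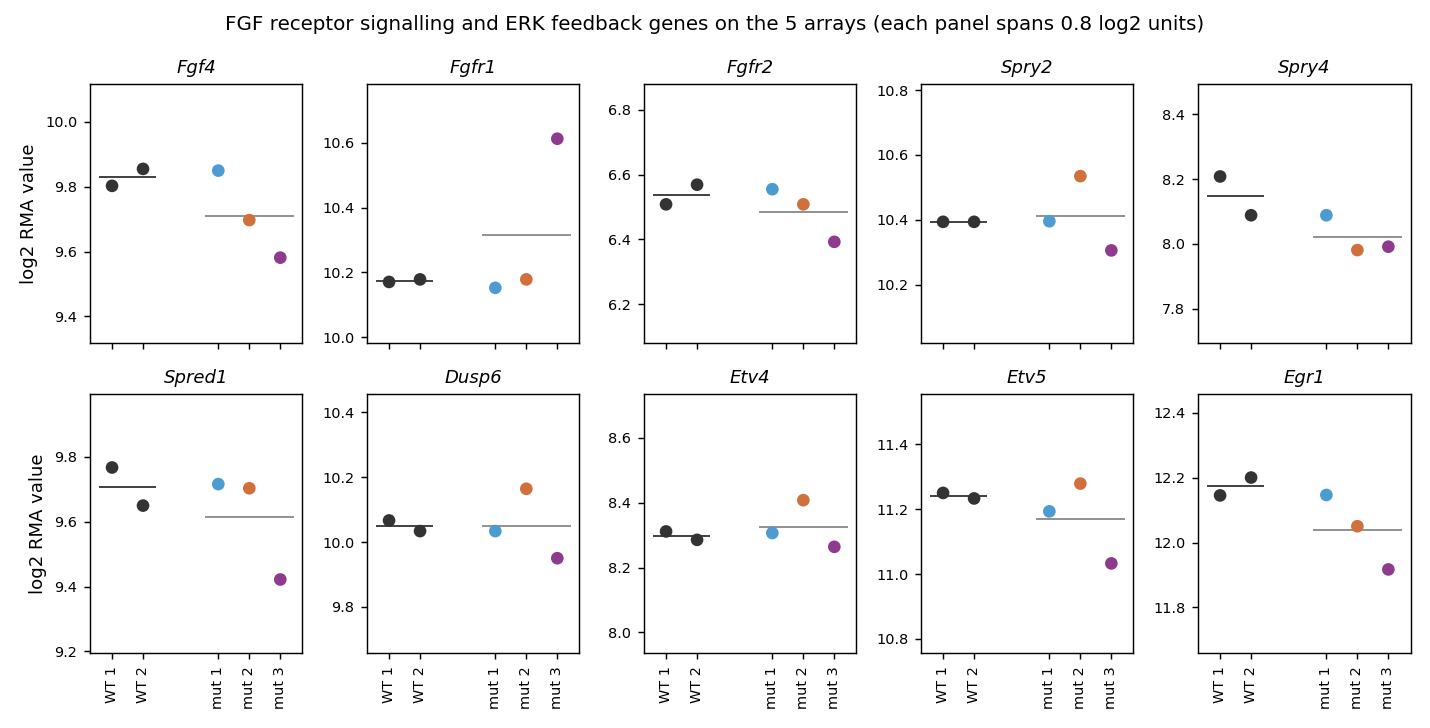
Log2 RMA value of each gene on the 2 WT and 3 Trip12 mut/mut arrays, 1 panel per gene, each spanning the same height. Points are arrays and horizontal lines are group means. The array labelled mutant replicate 1 lies within 0.06 of the WT mean in every panel, replicate 3 is the lowest array for 8 of the 10 genes, and Fgfr1 stands out with its high value of 10.61 on replicate 3.

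Fgf4, the ligand that embryonic stem cells make themselves, read 9.80 and 9.86 in WT, 9.85 on the array labelled mutant replicate 1, 9.70 on replicate 2 and 9.58 on replicate 3. The last pair lay below both WT arrays, and the array labelled mutant replicate 1 between them. Over all 5 arrays the difference was -0.12 with an SE of 0.10 (limma, adjusted p = 0.748). Without the array labelled mutant replicate 1 it was -0.19 with an SE of 0.06, and the 95% interval reached from -0.39 to 0.01. The probe set is of a kind (_x_at) whose probes can also bind other sequences. A second probe set at nearly the same signal read 9.731 and 9.765 in WT, 9.771 on replicate 2, just above both, and 9.51 on replicate 3. The dimmer one, with a WT mean of 6.89, was also lower on replicate 3 alone, at 6.71. The lower Fgf4 signal on replicate 3 was thus shared by all 3 probe sets above the probe set median, and that on replicate 2 was not.

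Fgfr1, the main FGF receptor of embryonic stem cells, read 10.17 and 10.18 in WT, 10.15 on the array labelled mutant replicate 1, 10.18 on replicate 2 and 10.61 on replicate 3. A single array, replicate 3, stood 1.35-fold above the WT mean, and the other 4 lay within a narrow band. The difference was 0.14 with an SE of 0.17 over all 5 arrays (limma, adjusted p = 0.769), -0.01 without replicate 3, and 0.22 with an SE of 0.18 without the array labelled mutant replicate 1 (limma, adjusted p = 0.555). The 3 probe sets of Fgfr1 disagreed on which array was high. One at a WT mean of 7.21 read 7.79 on replicate 2, 1.49-fold of WT, and 7.29 on replicate 3. The dimmest, with a WT mean of 6.11, was higher on every mutant array, at 6.38, 6.41 and 6.55. None of the 3 passed over all probe sets (limma, smallest adjusted p = 0.784). Fibroblasts also express Fgfr1, and the summed level of their markers was higher on replicates 2 and 3; its part in the Fgfr1 signal was not tested.

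Fgfr2, a receptor gene known from primitive endoderm and trophoblast, read 6.51 and 6.57 in WT, 6.55 on the array labelled mutant replicate 1, 6.51 on replicate 2 and 6.39 on replicate 3. Only replicate 3 lay below the WT arrays. The difference was -0.05 with an SE of 0.07 (limma, adjusted p = 0.778), and -0.09 with an SE of 0.07 without the array labelled mutant replicate 1. The other probe sets of Fgfr2 were dim, with WT means of 4.27 and 3.27. Of 9 primitive endoderm markers 7 had a mean above the probe set median, and 0 of the 7 tested passed without dim probe sets. The transcription factor genes Gata4 and Sox17 were the 2 below it, Gata4 at 4.42 to 4.48 on the 5 arrays. Of 8 trophoblast markers 6 were tested there, 2 fell and 0 rose, where 1.34% of all genes tested fell. Krt8 read 11.22 and 11.27 in WT, 8.96 on replicate 2 and 9.44 on replicate 3. Tfap2c went up on replicate 2, at 9.51 against 8.88 and 8.78 in WT.

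Among the inhibitors, Spry2, a Sprouty protein that blocks signalling between receptor and Raf, read 10.39 on both WT arrays, 10.40 on the array labelled mutant replicate 1, 10.53 on replicate 2 and 10.31 on replicate 3. Replicates 2 and 3 lay on opposite sides of WT, and the difference was 0.02 with an SE of 0.08 (limma, adjusted p = 0.944). Without the array labelled mutant replicate 1 it was 0.03, with a 95% interval from -0.28 to 0.33. A second probe set, with a WT mean of 7.34, was lower on replicate 3, at 6.99 or 0.784-fold of WT, and read 7.27 on the other mutant arrays. With that probe set the difference over all 5 arrays was -0.17, so the sign for Spry2 depends on the probe set.

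Spry4, a second Sprouty gene, read 8.21 and 8.09 in WT, 8.09 on the array labelled mutant replicate 1, 7.98 on replicate 2 and 7.99 on replicate 3. It was the only inhibitor with both of the last arrays below WT. The WT arrays themselves were 0.12 apart, the widest WT gap of the 10 genes. The difference was -0.13 with an SE of 0.07 (limma, adjusted p = 0.748), and -0.16 with an SE of 0.06 without the array labelled mutant replicate 1 (limma, adjusted p = 0.3). Of its other probe sets, that at a WT mean of 6.76 was lower on replicate 2 (6.59) and level with WT on replicate 3 (6.75). The next, at 6.55 in WT, was higher on replicate 2 (6.71) and lower on replicate 3 (6.37).

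Spred1, a relative of the Sprouty proteins that inhibits the step from Ras to Raf, read 9.77 and 9.65 in WT, 9.72 on the array labelled mutant replicate 1, 9.70 on replicate 2 and 9.42 on replicate 3. The first 4 arrays overlapped, and replicate 3 was at 0.820-fold of WT. The difference was -0.09 with an SE of 0.12 (limma, adjusted p = 0.771). Without the array labelled mutant replicate 1 it was -0.15 (limma, adjusted p = 0.561), and without replicate 3 it was 0.0011, so the sign rests on that array. Spred1 has 8 probe sets. Of the other 4 above the probe set median, those with WT means of 7.54 and 6.11 were lower on replicate 3, at 7.35 and 5.95, and those at 8.82 and 7.26 were level with WT there, at 8.82 and 7.27.

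Dusp6, the phosphatase that removes the activating phosphates of ERK, read 10.07 and 10.03 in WT, 10.03 on the array labelled mutant replicate 1, 10.16 on replicate 2 and 9.95 on replicate 3. As for Spry2, replicate 2 was the highest and replicate 3 the lowest of the 5 arrays. The group means of 10.05 ± 0.02 (SD, n = 2) and 10.05 ± 0.11 (SD, n = 3) were alike, and the 95% interval of the difference ran from -0.22 to 0.21, or from -0.28 to 0.30 without the array labelled mutant replicate 1. It is the gene of the 10 with the smallest measured difference (-0.0008), and it has 1 probe set.

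Etv4, an ETS-family transcription factor induced by FGF and ERK signalling, read 8.31 and 8.29 in WT, 8.31 on the array labelled mutant replicate 1, 8.41 on replicate 2 and 8.26 on replicate 3. The difference was 0.03 with an SE of 0.06 (limma, adjusted p = 0.87), and 0.04 without the array labelled mutant replicate 1. Its relative Etv5 read 11.25 and 11.23 in WT, 11.19 on the array labelled mutant replicate 1, 11.28 on replicate 2 and 11.03 on replicate 3. Here too replicate 2 was the highest array and replicate 3 the lowest, at 1.03-fold and 0.865-fold of WT. The difference was -0.07 with an SE of 0.09 (limma, adjusted p = 0.77), and -0.09 without the array labelled mutant replicate 1 (limma, adjusted p = 0.653).

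The other Etv5 probe sets gave another picture. The brighter, at a WT mean of 8.79, was lower on all 3 mutant arrays, at 8.70 on the array labelled mutant replicate 1, 8.60 on replicate 2 and 8.59 on replicate 3. The dimmer, at a WT mean of 8.08, read 7.23 on replicate 2, 1.80-fold lower than WT, but 7.99 on replicate 3 and 8.05 on the array labelled mutant replicate 1. This single value was the farthest from WT in any of the 31 probe sets of the 10 genes. Over all probe sets it did not pass (limma, adjusted p = 0.784, and 0.597 without the array labelled mutant replicate 1). Where these probe sets lie along the transcript was not analysed here.

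Egr1, a zinc finger transcription factor and immediate early target of ERK, read 12.15 and 12.20 in WT, 12.15 on the array labelled mutant replicate 1, 12.05 on replicate 2 and 11.92 on replicate 3. Replicates 2 and 3 lay below both WT arrays, at 0.918-fold and 0.837-fold of the WT mean. The difference was -0.13 with an SE of 0.09 over all 5 arrays (limma, adjusted p = 0.748), and -0.19 with an SE of 0.07 without the array labelled mutant replicate 1 (limma, adjusted p = 0.284). With Fgf4 and Spry4 it made 3 of 10 genes that were lower on replicates 2 and 3 without overlap with WT, and 0 were higher. Of all genes 44.2% had no overlap in this comparison, 17.5% lower and 26.7% higher.

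**Figure D2:**
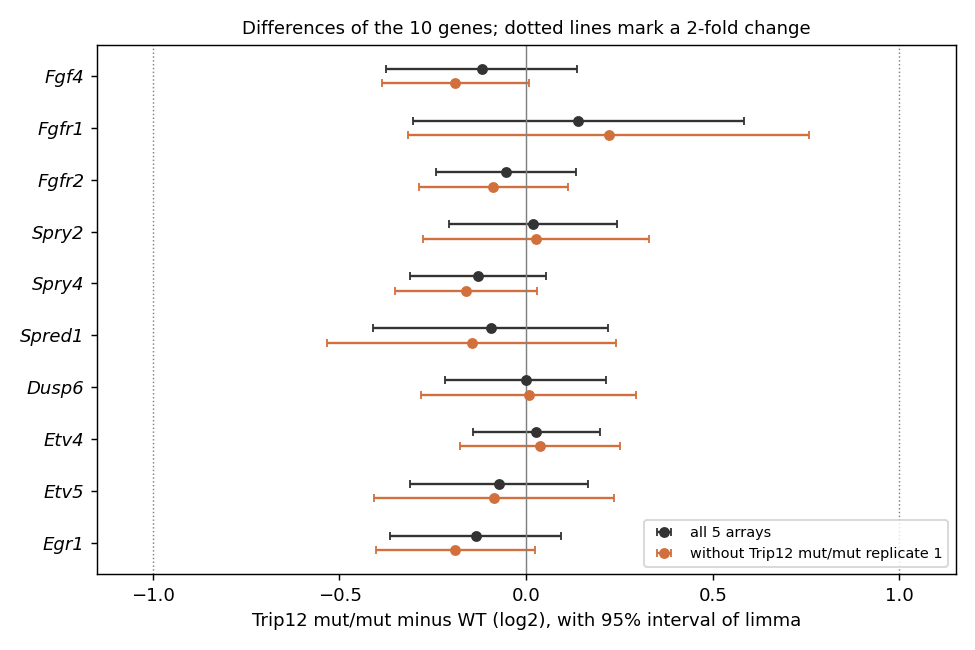
Difference between Trip12 mut/mut and WT of each of the 10 genes on the log2 scale, with its 95% interval from limma, over all 5 arrays (dark) and without the array labelled mutant replicate 1 (orange). All intervals lie inside the dotted lines at a 2-fold change, and the widest are those of Fgfr1 and Spred1.

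Most of the 10 genes were lowest on the same array. The array of replicate 3 was the lowest of the 5 for 8 of the 10 genes, all but Fgfr1 and Spry4, beside 26.6% of all genes. For Spry2, Dusp6, Etv4 and Etv5, 4 of the 10, replicate 2 was also the highest array, beside 8.47% of all genes. On replicate 3 the median deviation of the 10 genes from the WT mean was -0.15, and 5 of 10 deviated by at least 0.2, beside 36.8% of all genes. On replicate 2 it was -0.0007, and 0 of 10 deviated that far, beside 43.3% of all genes. On the array labelled mutant replicate 1 the largest deviation of any of the 10 was 0.06. Each of these is a value of 1 array, so a difference between replicates 2 and 3 has no replicate check.

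Promoter sequence is shown for the members that were highest on replicate 2 and lowest on replicate 3 and are in the RefSeq promoter table (build GRCm38.p6). These are the 250 bases before the transcription start, 5′ to 3′ on the gene's strand. Capitals mark the core CGGAAG bound by ETS factors such as ETV4 and ETV5, or the GC box GGGCGG bound by SP1, on either strand; the searched letters do not overlap each other in these windows. Dusp6 is at chr10:99262981-99263230 on the plus strand, Spry2 at chr14:105896820-105897069 and the upstream of the 2 Etv5 starts at chr16:22439571-22439820, both on the minus strand.
Dusp6: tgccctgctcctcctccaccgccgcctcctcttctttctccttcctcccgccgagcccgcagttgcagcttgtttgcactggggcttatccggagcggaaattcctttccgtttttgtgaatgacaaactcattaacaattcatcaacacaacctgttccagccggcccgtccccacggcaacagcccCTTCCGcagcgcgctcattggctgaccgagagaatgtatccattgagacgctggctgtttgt
Spry2: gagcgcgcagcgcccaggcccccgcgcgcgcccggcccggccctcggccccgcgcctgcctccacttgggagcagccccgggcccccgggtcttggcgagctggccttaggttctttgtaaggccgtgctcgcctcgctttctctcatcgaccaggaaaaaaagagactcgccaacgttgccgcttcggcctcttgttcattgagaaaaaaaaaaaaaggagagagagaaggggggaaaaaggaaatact
Etv5: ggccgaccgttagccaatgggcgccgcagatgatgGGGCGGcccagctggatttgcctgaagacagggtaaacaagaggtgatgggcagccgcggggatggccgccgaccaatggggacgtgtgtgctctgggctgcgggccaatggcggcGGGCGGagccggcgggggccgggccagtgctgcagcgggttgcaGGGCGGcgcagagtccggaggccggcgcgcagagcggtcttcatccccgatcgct
Dusp6 holds the ETS core once, on the opposite strand, 62 to 57 bases before the start. Etv5 holds 3 GC boxes, and Spry2 neither motif. Promoters of 6 of the 10 genes were in the table. The ETS core was in 2 of the 6, Dusp6 and Spred1, beside 13.6% of 32851 promoter windows of this length, and the GC box in 3 of the 6, Fgf4, Spred1 and Etv5, beside 32.7%. A gene was counted here if any of its starts matched, whereas the shares are over single windows. The window of the other Etv5 start, not shown, held neither motif. These are matches of letters, not measured binding sites.

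The remaining probe sets of the 10 genes gave no call. Of 31 probe sets, 21 were not the one used for a gene, and 14 of these had a mean above the probe set median. On replicate 3, 9 of the 14 lay below their WT mean, and on replicate 2, 7 did. Only 2 of the 14 deviated by at least 0.5 on any mutant array, the Etv5 and Fgfr1 probe sets described above, and both did so on replicate 2. Over all probe sets 0 of 31 passed (limma, smallest adjusted p = 0.784 over all 5 arrays and 0.166 without the array labelled mutant replicate 1).

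**Figure D3:**
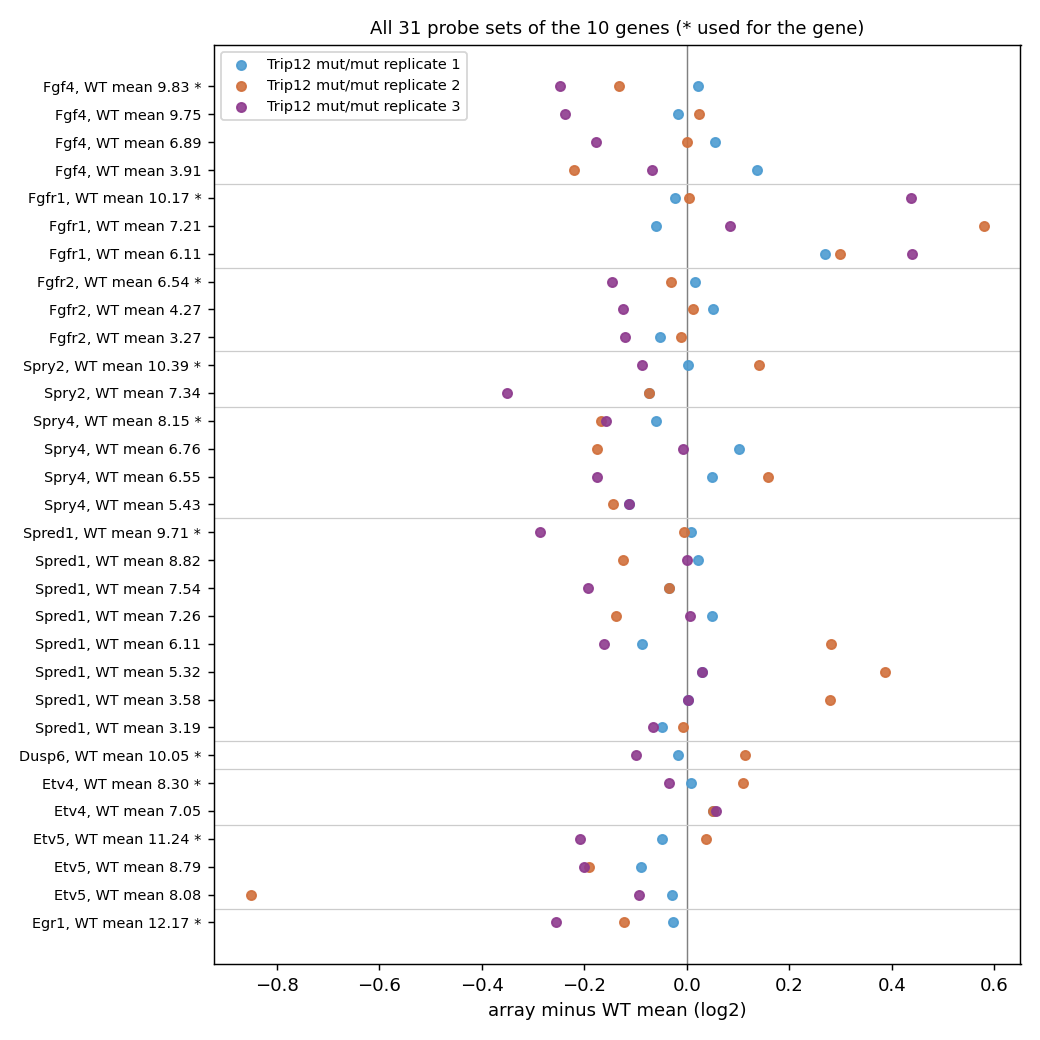
Deviation of each Trip12 mut/mut array from the WT mean (log2) for all 31 probe sets of the 10 genes, ordered by level within a gene, with the WT mean in the label. An asterisk marks the probe set used for the gene. Most points lie within 0.4 of WT, and the Etv5 probe set with a WT mean of 8.08 is farthest, at -0.85 on replicate 2.

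Other FGF genes showed larger differences than the 10 members. Of 70 other genes listed for the FGF and ERK pathway, 62 were measured and 0 passed over all 5 arrays (limma, smallest adjusted p = 0.748, with 1 of 62 at an unadjusted p below 0.05). Of these 62, 11 differed by at least 0.5 without the array labelled mutant replicate 1, or 17.7% beside 9.32% of all genes. A mean above the probe set median was found for 54 of the 62, and for 11560 of 18193 genes. Genes above it differed more, with a median absolute difference of 0.18 beside 0.13 over all genes. The part of signal level in the 17.7% was not tested. In the comparison without dim probe sets 55 of the 62 were tested, 1 rose and 4 fell, or 9.09% beside 4.64% of all genes tested. Among the 4 is Fgf5, which passed the filter through its WT arrays alone, so the 9.09% rests in part on the filter. The median difference of the 62 without the array labelled mutant replicate 1 was 0.03, beside 0.02 over all genes. All 5 calls, and the differences in the paragraphs on these genes, rest on replicates 2 and 3, with adjusted p of 0.748 for each of the 5 over all 5 arrays. For pathway genes without a call, only the probe set used is shown. Whether their other probe sets gave the same profile was not examined.

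Of 13 listed FGF genes other than Fgf4, 7 were tested in that comparison, 3 fell, Fgf5 among them, and 1 rose. Of all genes tested there, 1.34% fell and 3.29% rose. Fgf15, the mouse counterpart of human FGF19 and the chromosomal neighbour of Fgf4, read 8.43 and 8.42 in WT, 8.40 on the array labelled mutant replicate 1, 6.81 on replicate 2 and 6.97 on replicate 3. The groups were far apart without the array labelled mutant replicate 1, and Fgf15 fell by 1.54, or 2.91-fold, with an SE of 0.09 (limma, adjusted p = 0.0391). The limma adjusted p was 0.0785 with dim probe sets kept. On chromosome 7 Fgf4 lies between Fgf3 and Fgf15. Fgf3, a ligand gene, was dim, with values from 4.07 to 4.45, and the interval of the Fgf4 difference without the array labelled mutant replicate 1 (-0.39 to 0.01) did not overlap that of Fgf15 (-1.77 to -1.31); the difference between the genes was not tested.

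Fgf5, the ligand of the postimplantation epiblast, was the listed FGF gene with the largest difference. It read 7.22 and 7.10 in WT, 7.17 on the array labelled mutant replicate 1, then 3.83 on replicate 2 and 4.78 on replicate 3. The difference was -2.85 (limma, adjusted p = 0.0454 in the same comparison, and 0.0854 with dim probe sets kept). Fgf5 passed the filter on dim probe sets through its WT arrays alone, since the last arrays are below the probe set median, so its call there rests on the filter and the size is only that of the listed values.

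Fgf13 and Fgf7 were the other calls among the listed FGF genes, and are named here after their values were seen. Fgf13, which encodes an intracellular FGF homologue that is not a ligand of the receptors in the usual sense, read 7.44 and 7.49 in WT, 7.47 on the array labelled mutant replicate 1, then 6.48 on replicate 2 and 6.41 on replicate 3. It fell by 1.02 with an SE of 0.07 (limma, adjusted p = 0.0418). Fgf7, a ligand made by mesenchymal cells for epithelia, read 9.996 and 10.06 in WT, 10.06 on the array labelled mutant replicate 1, then 10.61 on replicate 2 and 10.65 on replicate 3. It rose by 0.60 with an SE of 0.07 (limma, adjusted p = 0.0436), and its second probe set read 9.14 and 9.27 on the same arrays against a WT mean of 8.38. The summed level of the fibroblast markers was higher on these arrays too. Of the 21 markers 5 rose and 0 fell in the same comparison, where 3.29% of all genes tested rose. Single markers went otherwise on replicate 2, with Pdgfra at 8.81, Lum at 9.72 and Mmp2 at 9.86, below WT values of 9.04, 10.03 and 10.23. Their part in the Fgf7 signal was not tested.

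Other FGF genes lay apart without a call, and are likewise named after their values were seen. Fgf18, a ligand of skeletal and lung development, read 5.70 and 5.91 in WT, 5.84 on the array labelled mutant replicate 1, 6.58 on replicate 2 and 6.38 on replicate 3 (difference 0.68, limma adjusted p = 0.06 without dim probe sets). Fgf8, a ligand of gastrulation, was dim, at 4.92 and 5.18 in WT, 4.80 on the array labelled mutant replicate 1, 4.39 on replicate 2 and 4.38 on replicate 3.

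**Figure D4:**
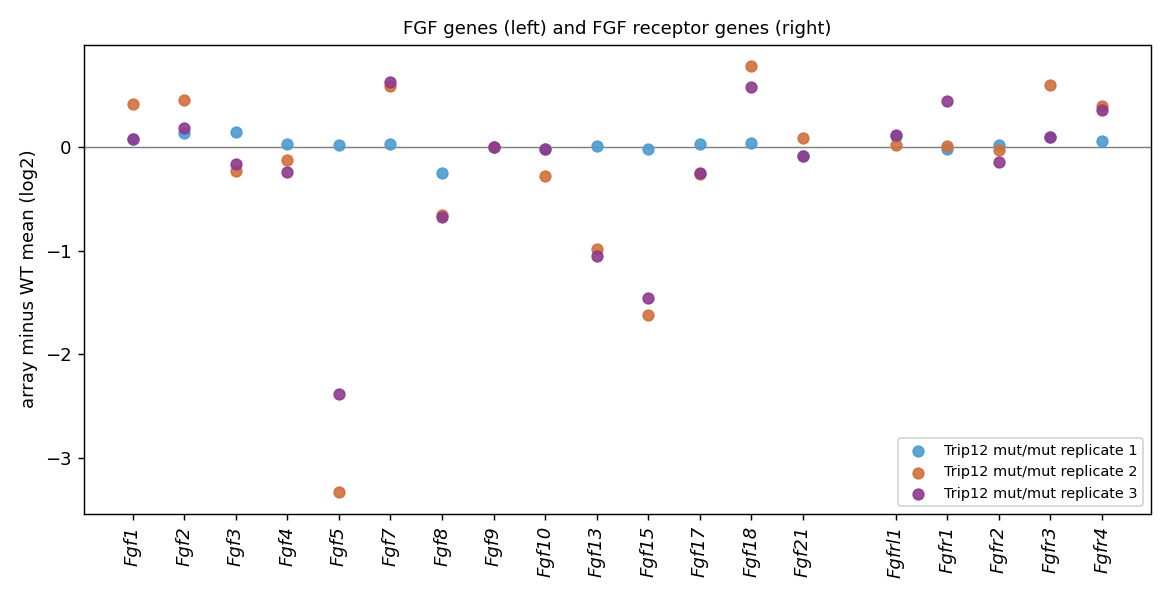
Deviation of each Trip12 mut/mut array from the WT mean (log2) for the 14 listed FGF genes, Fgf4 included, and 5 FGF receptor genes. Fgf5, Fgf15, Fgf13 and Fgf8 lie below WT on replicates 2 and 3, and Fgf7 and Fgf18 above it, while Fgf4, Fgfr1 and Fgfr2 are within 0.5 of WT on all 3 arrays.

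The 3 other receptor genes gave 0 calls in either direction. Fgfr3, a receptor of cartilage and neural tissue, read 5.71 and 5.53 in WT, 5.71 on the array labelled mutant replicate 1, 6.21 on replicate 2 and 5.71 on replicate 3, so that 1 array stood out. Fgfr4, a receptor known from liver and named after its values were seen, was dim. It read 5.16 and 5.22 in WT, 5.25 on the array labelled mutant replicate 1, 5.58 on replicate 2 and 5.55 on replicate 3. All 3 mutant arrays lay above WT, the first only just (limma, adjusted p = 0.748 over all 5 arrays). Fgfr4 passed the filter on dim probe sets through replicates 2 and 3 alone, where it was high. Its limma adjusted p of 0.0637 in that comparison therefore rests on the filter, and was 0.0854 with dim probe sets kept. Fgfrl1, a receptor-like protein without a kinase domain, stayed between 8.73 and 8.87 on the 5 arrays. Of 7 adaptor genes 0 passed. Grb2, which links the receptor complex to Sos, read 9.32 on both WT arrays, 9.17 on the array labelled mutant replicate 1, and 9.76 and 9.73 on replicates 2 and 3 (difference 0.43, limma adjusted p = 0.053). Sos1, the exchange factor that loads Ras, was low on replicate 2 alone, at 8.12 against 8.84 and 8.83 in WT and 8.70 on replicate 3.

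Of 7 genes of the kinase cascade 1 fell and 0 rose. Braf, a Raf kinase that phosphorylates MEK, read 9.36 and 9.39 in WT, 9.41 on the array labelled mutant replicate 1, 8.77 on replicate 2 and 8.63 on replicate 3. It fell by 0.67, or 1.59-fold, with an SE of 0.08 (limma, adjusted p = 0.0467). On replicates 2 and 3 all 9 Braf probe sets lay below their WT mean, by 0.01 to 0.82. Map2k1, which encodes the MEK kinase downstream of Raf, read 11.52 and 11.50 in WT, 11.52 on the array labelled mutant replicate 1, then 11.99 on replicate 2 and 11.90 on replicate 3. That difference of 0.44 did not pass (limma, adjusted p = 0.0566).

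Of 12 other negative regulators tested 0 passed, as did 0 of 19 other transcription factors and targets. Dusp4, a nuclear phosphatase for ERK, read 10.05 and 9.94 in WT, 10.02 on the array labelled mutant replicate 1, 10.88 on replicate 2 and 10.58 on replicate 3. Its difference was 0.73 with an SE of 0.13 (limma, adjusted p = 0.0607), and that of Dusp6 in the same comparison was 0.0071. The intervals of Dusp4 (0.33 to 1.13) and Dusp6 (-0.28 to 0.30) without the array labelled mutant replicate 1 did not overlap; the difference between the genes was not tested. Lztr1, an adaptor of Ras degradation, read 9.04 on replicate 2 and 8.53 on replicate 3, against 8.40 and 8.12 in WT (adjusted p = 0.221, limma). Epha4, an ephrin receptor, was at 7.12 and 6.82 on replicates 2 and 3 and at 6.17 and 6.21 in WT (difference 0.78, limma adjusted p = 0.0555). Ccnd1, the G1 cyclin, was at 9.26 and 9.59 against 10.16 and 10.04 in WT (difference -0.68, limma adjusted p = 0.0734).

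Replicate 3 was the lowest array for 14 of the 62 other pathway genes, or 22.6%, beside 26.6% of all genes. It was the highest array for 15 of the 62, or 24.2%, beside 18.5% of all genes. Some relatives of the members on each side are named below, after their values were seen. Spry1, a further Sprouty gene, read 6.96 on replicate 3 and 7.38 to 7.57 on the other arrays. Egr2 and Egr3, relatives of Egr1, read 5.81 and 7.26 on replicate 3, against 6.30 to 6.36 and 7.63 to 7.73 on the other arrays. Fos, a further immediate early gene, read 11.02 there and 11.33 to 11.43 elsewhere. Other AP-1 genes went both ways on that array. Fosb was the lowest there too, at 7.41 against 7.67 to 7.76. Jun read 10.36 and Fosl2 9.75 on replicate 3, above the 9.78 to 9.94 and 9.09 to 9.45 of the other arrays. Fosl1 and Junb were also highest there, at 8.56 and 8.15 against 8.07 to 8.275 and 7.97 to 8.10 elsewhere. So were Spred3 and Dusp1, relatives of Spred1 and Dusp6, at 6.60 and 11.87 against 6.27 to 6.53 and 11.58 to 11.75. None of the genes named in this paragraph passed in any of the 3 comparisons.

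**Figure D5:**
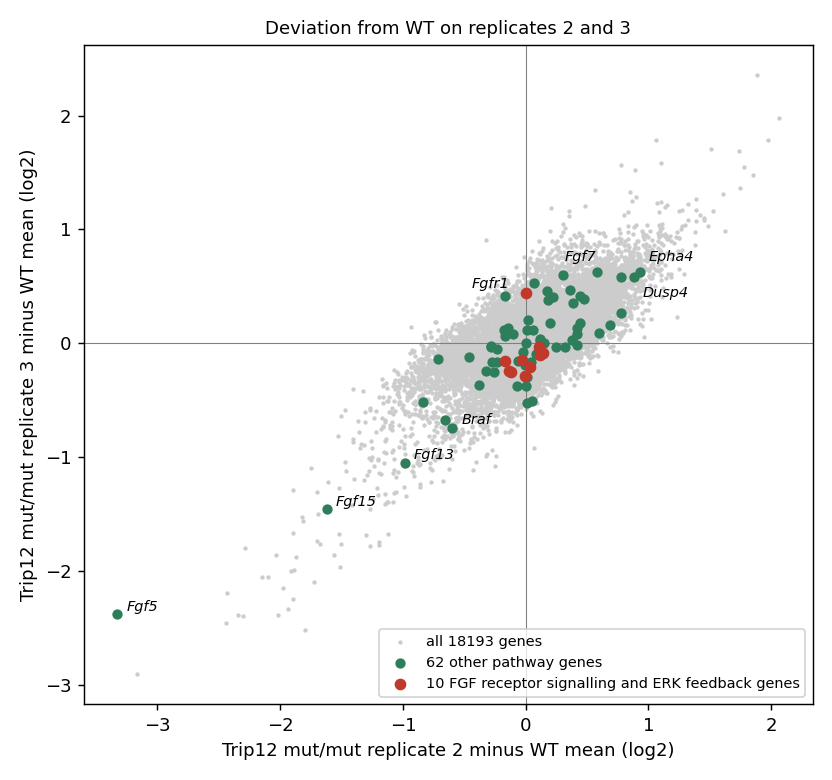
Deviation from the WT mean (log2) on Trip12 mut/mut replicate 2 (horizontal) and replicate 3 (vertical) for all 18193 genes (grey), 62 other genes of the pathway (green) and the 10 FGF receptor signalling and ERK feedback genes (red). Both axes share the WT mean. The 10 genes lie near the centre, most of them slightly below 0 on replicate 3, whereas Fgf5, Fgf15 and Fgf13 lie far to the lower left.

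The likeness of other genes' profiles was measured for the 3 members with the widest range over the arrays. It is the root mean square distance between the profiles of the 5 arrays, each centred on its gene's mean, among genes with a mean above the probe set median. Nearest to Fgfr1 were Osm, Ngly1 and Pxdn, at distances of 0.0081, 0.016 and 0.016 on the log2 scale. Osm encodes a cytokine, Ngly1 a deglycosylating enzyme and Pxdn a matrix peroxidase, and each was high on replicate 3 alone. Nearest to Spred1 were Nxt2, Cks1b and Clns1a, at 0.016, 0.019 and 0.020, which were all low on replicate 3. Nearest to Egr1 were Zfp239, Prkrip1 and Pspc1, at 0.0096, 0.012 and 0.012. With 5 arrays among 11560 genes, profiles this close are a description only.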

How the data were processed

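The deposited values are log2 RMA values, 1 per probe set and array, and per the submitters' processing notes the authors made them with RMA, a procedure of background correction, normalisation between arrays and probe summary. Normalisation forces array medians together (5.51 to 5.55), so a shift of all transcripts cannot be seen, and RMA gives no detection call. Scanner files were not used here. Affymetrix control probe sets (64 of 45101) were left out. Symbols came from the platform annotation, updated by gene number through a GRCm38.p6 table. The test was lmFit and eBayes of limma 3.58.1 under R 4.3.3 (two-sided, genotype only), over all 18193 genes, with Benjamini-Hochberg adjustment and a threshold of 0.05. Its code was also run on simulated data in which all mutant arrays were shifted alike. The mutant arrays here were not alike, so that run checks the code and not the error rate in these data. The comparison with dim probe sets removed kept genes with at least 2 arrays above 5.52. Figures used matplotlib 3.10.9.

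The members, the pathway list and the comparisons were chosen with earlier results of these data known. All 10 members were named. From each role of the pathway list, the 2 genes above the probe set median with the largest absolute difference without the array labelled mutant replicate 1 were named. That array was left out because of its values, so p-values without it are not those of a planned comparison. The number of arrays limits every value. Alternatives were each array left out, a dim filter, quantile normalisation, median centring, a variance trend, array weights, a replicate block, other choices of probe set and tests of all probe sets.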

Additional observations from a re-analysis of the deposited data

How the results depend on the processing

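No member passed in any of 15 alternatives (smallest limma adjusted p, 0.22), nor with all probe sets tested without the array labelled mutant replicate 1 (0.166), which was added after the data were seen and called 0 probe sets. Of 150 values of single members, 134 kept their sign and 16 reversed. Some of these could not change: testing all probe sets, removing dim ones or a variance trend leaves a member's difference as it was. The replicate block gave the same differences as leaving out replicate 3. The 134 therefore overstate how stable the signs are. Fgf4, Fgfr2, Etv5 and Egr1 had no reversal, but without replicate 3 they were -0.0554, -0.0069, -0.0054 and -0.0745, and with the probe set of largest SD Etv5 was -0.3243 and Fgf4 -0.0507. Dusp6 was 0.0489 with the replicate block, 0.0071 without the array labelled mutant replicate 1 (with or without dim probe sets) and -0.0582 to 0.0489 over the arrays left out. With the block Fgfr1 was -0.0091 and Spred1 0.0011, and over the arrays left out they ranged from -0.0091 to 0.22 and from -0.15 to 0.0011. Etv4 ranged from -0.0132 to 0.0587, and Spry2 from -0.0432 to 0.0714. Spry2 was -0.0185 with array weights, -0.0739 with the mean of probe sets and -0.17 with the probe set of largest SD, where Spred1 was 0.0108 and Spry4 0.0107. The cause was not tested.

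The median of the members ranged from -0.09 to -0.0062 with an array left out. That of the 62 pathway genes (0.0185) was 0.0455 with dim probe sets removed, 0.073 with these and the array labelled mutant replicate 1 removed, 0.0019 with quantile normalisation, -0.0123 with the mean of probe sets, -0.0253 with the probe set of largest SD, and -0.0125 to 0.0317 with an array left out. Calls rose from 0 to 539 genes and 5 pathway genes only where the array labelled mutant replicate 1 and dim probe sets were both removed, which leaves fewer genes and samples.

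Replicate numbers 1 and 2 occur in both groups, but the labels tie no samples by number. Deviations of same-numbered arrays from their group means correlated at -0.05 and -0.08 over genes. With 2 WT arrays the WT deviations mirror each other, so these correlations cannot show whether the numbers pair samples. The replicate block left 0 members called. A group left with 1 WT array was assumed to vary like the other group.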
